A study of Mus musculus with 84 samples.

Results

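The Hox cluster genes are the rows of the deposited expression table whose symbol is Hox, a cluster letter from a to d and a number. They numbered 38 of 20308 genes: 11 of HoxA, 10 of HoxB, 9 of HoxC and 8 of HoxD. Hoxd4 is not analysed here. The genes were followed over 84 single cells from the aorta-gonad-mesonephros (AGM) of mouse embryos at E11.5, the region of the trunk that holds the dorsal aorta and the early urogenital ridge. The cells had been sorted as CD31+CD144+CD41-CD45-, which selects endothelium and leaves out platelet and blood cells, and each sample is 1 cell. The labels give no embryo, strain, sex or treatment, so the cells make up 1 sample without replicates, no test across cells was made, and intervals on shares of cells are exact (Clopper-Pearson, 95%) and cover counting error only.

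Hox genes encode transcription factors that bind DNA through a homeodomain and give cells their position along the body axis. In mammals they lie in 4 clusters, and genes with the same number in different clusters, called paralogs, descend from 1 ancestral gene. Genes with low numbers lie at the 3′ end of a cluster and are switched on earlier and further toward the head than genes with high numbers at the 5′ end, a rule named colinearity. In what follows, numbers 1 to 4 are called anterior, 5 to 8 central and 9 to 13 posterior.

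Values are TPM, transcript abundances scaled for transcript length and to a fixed total per cell, and a gene counts as detected at TPM 1 or more. A cell held a median of 6978 detected genes, from 3334 to 10073. TPM keeps no read depth, so an unexpressed gene and a missed transcript both read as 0. The sort genes Pecam1 and Cdh5 were detected in 80 and 82 cells, Itga2b in 7 and Ptprc in 0. Of the 84 cells, 34 also held at least 3 of 12 mesenchyme markers, such as collagens, at TPM 10 or more, and 4 held at least 3 of 7 neural markers at that level. Such markers are not those the sort selects for. The 34 cells still held a median of 13 of 17 pan-endothelial markers at TPM 10 or more, against 15.5 in the cells without mesenchyme markers at that count. Some of the 34 cells lay far below that median, such as cell 65 with 0 and cell 13 with 2. Results are given with and without both kinds of cell where they matter.

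On the GRCm38.p6 assembly, which mm10 names, HoxA spanned 105.5 kb of chromosome 6 on the minus strand. HoxB spanned 173.9 kb of chromosome 11 (96194316 to 96368254), HoxC 115.7 kb of chromosome 15 (102921131 to 103036856) and HoxD 96.9 kb of chromosome 2 (74668225 to 74765142), all on the plus strand. The transcripts of the 38 genes were compared with each other in windows of 67 bp, the read length. Of the 38, 33 had 0 windows within 2 mismatches of another of these genes. The highest share was 5.70%, for Hoxc10 with Hoxc5. Hoxd4 was not in this comparison, so windows shared with it are not counted. The 23 pairs of neighbours examined for co-detection had 0 annotated exon bases in common. Exons of 9 genes were overlapped by annotated exons on the opposite strand, from 3.59% of the exon bases of Hoxb5 to 52.9% of those of Hoxb3, and include 34.98% for Hoxa11 and 25.4% for Hoxa3. The sources used here do not say that counting used strand, so sense and antisense reads of those genes cannot be told apart. Of the exon bases of Hoxd3, 62.3% were shared on the same strand with Hoxd4 or Gm28230, so the values of Hoxd3 are uncertain. Smaller same-strand overlaps touched 7 other genes, among them Hoxd10 (104 bases) and Hoxd11 (455 bases), which both share exons with Gm28309, and Hoxc5 with Hoxc10 (166 bases).

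The promoters of genes whose co-detection the later results turn on are shown here, from 250 bases before to 50 after each annotated start, as given by RefSeq for GRCm38.p6. Hoxd9 and Hoxd10 are the neighbours with the highest co-detection ratio, and Hoxa11 and Hoxd11, the latter with 2 annotated starts, were added after their values were seen because they lie in different clusters and were found in the same cells. RefSeq promoters were matched for 21 of the 38 genes. Capitals mark matches on either strand to TGATNNAT, a composite site of PBX and Hox proteins, to AGGTCA, a nuclear receptor half-site, to TTTATGG, a CDX site, or to CCAAT, and no listed motif overlapped another in these windows.
Hoxd9 (chr2:74697513-74697812, plus strand): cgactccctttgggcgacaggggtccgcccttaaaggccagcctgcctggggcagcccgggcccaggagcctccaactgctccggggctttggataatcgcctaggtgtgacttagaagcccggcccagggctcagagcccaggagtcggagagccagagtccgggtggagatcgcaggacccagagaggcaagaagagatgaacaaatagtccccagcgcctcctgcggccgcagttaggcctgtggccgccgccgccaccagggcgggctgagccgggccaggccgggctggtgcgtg
Hoxd10 (chr2:74691641-74691940, plus strand): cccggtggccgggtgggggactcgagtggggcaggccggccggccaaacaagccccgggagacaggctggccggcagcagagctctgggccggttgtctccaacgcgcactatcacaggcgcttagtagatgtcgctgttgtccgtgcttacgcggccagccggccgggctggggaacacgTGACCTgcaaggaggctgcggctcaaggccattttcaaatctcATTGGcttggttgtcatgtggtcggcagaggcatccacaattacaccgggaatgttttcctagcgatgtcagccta
Hoxa11 (chr6:52245761-52246060, minus strand): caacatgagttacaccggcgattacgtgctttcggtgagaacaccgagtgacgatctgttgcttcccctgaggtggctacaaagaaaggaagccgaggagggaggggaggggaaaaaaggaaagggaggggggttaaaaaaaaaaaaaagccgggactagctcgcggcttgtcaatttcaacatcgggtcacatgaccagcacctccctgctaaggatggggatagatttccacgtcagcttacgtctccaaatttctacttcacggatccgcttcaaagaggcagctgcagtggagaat
Hoxd11, first start (chr2:74679308-74679607, plus strand): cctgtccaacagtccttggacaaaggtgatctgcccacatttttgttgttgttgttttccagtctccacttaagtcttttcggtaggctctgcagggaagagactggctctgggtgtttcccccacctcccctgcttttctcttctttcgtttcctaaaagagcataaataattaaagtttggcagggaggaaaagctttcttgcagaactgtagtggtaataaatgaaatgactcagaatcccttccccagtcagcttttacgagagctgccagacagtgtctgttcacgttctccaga
Hoxd11, second start (chr2:74682073-74682372, plus strand): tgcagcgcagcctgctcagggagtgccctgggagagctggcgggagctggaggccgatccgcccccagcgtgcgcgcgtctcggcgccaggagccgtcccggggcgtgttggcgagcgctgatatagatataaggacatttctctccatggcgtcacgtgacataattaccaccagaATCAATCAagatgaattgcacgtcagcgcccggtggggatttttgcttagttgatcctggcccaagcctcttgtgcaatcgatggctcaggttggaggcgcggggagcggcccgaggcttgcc

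The Hoxd10 window held 1 AGGTCA and 1 CCAAT, the second Hoxd11 window held 1 TGATNNAT, and the other windows held 0 of the 4 motifs. CG dinucleotides numbered 20 for Hoxd9, 22 for Hoxd10, 15 for Hoxa11, and 4 and 25 for the starts of Hoxd11. Among the 23 Hox promoters the median was 15 CG dinucleotides, compared with 7 among all 32851 promoters. TGATNNAT was present in 4 of the 23 (17.4%, against 8.85% of all promoters), AGGTCA in 6 (26.1%, against 16.3%), CCAAT in 14 (60.9%, against 37.4%) and TTTATGG in 0 (against 2.75%). These matches describe the letters in the windows only.

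Almost every cell held Hox transcripts. At least 1 Hox gene was detected in 83 of 84 cells (98.8%, 93.5% to 99.97%), and 35 of the 38 genes were detected in some cell. A cell held a median of 6 Hox genes (quartiles 3.75 and 9, lowest 0, highest 16). The cell without a detected Hox gene, cell 49, held 5 of them at under TPM 1, and had 7545 detected genes and 16 of 17 pan-endothelial markers at TPM 10. Summed over all Hox genes, the level ran from 1.83 TPM in that cell through a median of 149 TPM to 1204 TPM in cell 78. That highest sum rested on Hoxa10 at 851 TPM and Hoxc10 at 303 TPM in the same cell, which had 4 pan-endothelial and 5 mesenchyme markers at TPM 10.

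HoxA was the most widely detected cluster. A HoxA gene was found in 75 cells (89.3%, 80.6% to 94.98%), a HoxB gene in 65 (77.4%, 67.0% to 85.8%), a HoxD gene in 55 (65.5%, 54.3% to 75.5%) and a HoxC gene in 50 (59.5%, 48.3% to 70.1%). The intervals of neighbours in this order overlap, and that of HoxA lies above those of HoxC and HoxD. Such shares depend on the number of genes counted, 11 in HoxA, 10 in HoxB, 9 in HoxC and 8 in HoxD without Hoxd4. HoxA supplied 52.3% of all Hox TPM, HoxD 21.6%, HoxC 16.2% and HoxB 9.93%, so HoxB was widespread but low. Genes of all 4 clusters were detected together in 29 cells, of 3 clusters in 27, of 2 in 21 and of 1 in 6.

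**Figure D1:**
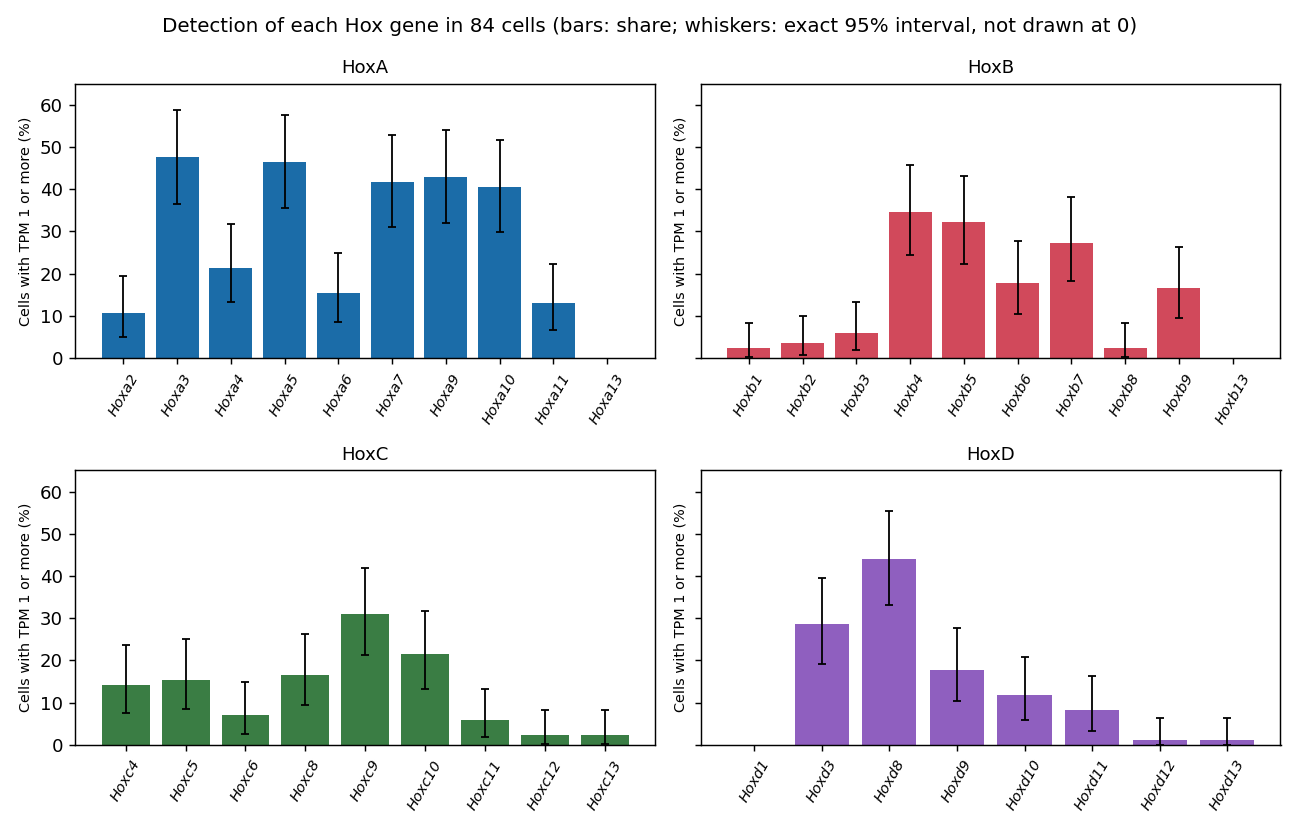
Share of the 84 cells in which each Hox gene reported here reached TPM 1 (y axis, percent), by cluster and ordered by paralog number, with exact 95% intervals over cells. Detection peaked inside each cluster, at Hoxa3 (40 cells), Hoxb4 (29 cells), Hoxc9 (26 cells) and Hoxd8 (37 cells), and fell to 2 cells or fewer for every gene numbered 12 or 13.

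Among anterior genes, paralogs 3 and 4 were common. Hoxa3, which in blood-forming endothelium is known to hold back the blood programme, was detected in 40 cells (47.6%, 36.6% to 58.8%), where it ran from 1.44 through a median of 6.79 to 89.7 TPM. Hoxb4, known for its effect on blood stem cells in culture, was detected in 29 cells at a median of 2.79 and at most 15.7 TPM, and another 29 cells held it above 0 but under TPM 1. Hoxa4 was detected in 18 cells and Hoxd3 in 24. Low values were a trait of some genes only: of the cells with any value above 0, 50% lay under TPM 1 for Hoxb4 and 51.9% for Hoxc9, compared with 5.13% for Hoxd8 and 0% for Hoxc5. The median over the 30 Hox genes above 0 in at least 5 cells was 22.1%, and over all 13333 such genes 18.2%.

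Paralog 2 and other genes near the 3′ ends were seldom found. Any paralog 2 gene was detected in 12 cells. Hoxa2 was detected in 9 cells at a median of 3.79 TPM. Hoxb1 was found in 2 cells, Hoxb2 in 3 and Hoxb3 in 5, and Hoxd1 in 0. By a limit of 3 counts for a count of 0, this allows a share of up to 3.57% of cells (3 of 84 cells). The exact interval used for other shares reaches 4.3%.

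Central genes were detected in 75 cells and carried 44.5% of all Hox TPM. Hoxa5 was found in 39 cells (46.4%, 35.5% to 57.7%), at 1.09, a median of 14.3 and at most 115 TPM. Hoxd8 was found in 37 cells (44.05%, 33.2% to 55.3%), at 1.07, a median of 50.95 and at most 204 TPM, and 30 of the 37 reached TPM 10. Hoxa7 was found in 35 cells, where its median was 28.4 TPM, and was highest in cell 65 at 498 TPM. That cell had 0 of 17 pan-endothelial and 4 mesenchyme markers at TPM 10. These 3 genes did not differ in detection beyond their intervals, while the detected level of Hoxd8 had the highest median among genes found in more than 10 cells.

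The other central genes were detected in fewer cells. Hoxb5 was found in 27 cells and Hoxb7 in 23, at medians of 6.61 and 11.8 TPM. Their neighbour Hoxb8 was found in 2, although 10 cells held it above 0. Hoxa6 and Hoxc5 were each found in 13 cells, Hoxb6 in 15, Hoxc8 in 14 and Hoxc6 in 6. Detection therefore did not change smoothly along a cluster: in HoxA it was 40, 18, 39, 13 and 35 cells for Hoxa3 to Hoxa7 in order.

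Posterior genes were detected in 60 cells (71.4%, 60.5% to 80.8%) and carried 39.4% of all Hox TPM. Hoxa9, a regulator of blood stem cells and of endothelial growth, was found in 36 cells (42.9%, 32.1% to 54.1%), at 1.8, a median of 10.1 and at most 114 TPM. Hoxa10 was found in 34 cells (40.5%, 29.9% to 51.8%), at 1.08, a median of 28.8 and at most 851 TPM, with 8 cells at TPM 100 or more. Hoxc9 was found in 26 cells, low, at a median of 2.87 TPM. Hoxc10 was found in 18 cells at a median of 25.1 and at most 303 TPM, Hoxd9 in 15 at 6.75, Hoxb9 in 14 at 11.48 and Hoxd10 in 10 at 39.4. A paralog 10 gene was present in 42 cells, and paralog 10 carried 26.55% of all Hox TPM. Cell 78 held the highest sums, 1189 TPM of posterior genes and 1153 TPM of paralog 10, and these shares of TPM include it.

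Beyond number 10, detection dropped. Paralog 11 genes were found in 14 cells (16.7%, 9.42% to 26.4%): Hoxa11 in 11, at most 13.9 TPM, Hoxd11 in 7, at most 33.4 TPM, and Hoxc11 in 5, at most 20.6 TPM. A gene numbered 12 or 13 was found in 4 cells (4.76%, 1.31% to 11.7%). Hoxc12 and Hoxc13 were found in the same cells, 12 and 61, with Hoxc13 at 266 and 63.4 TPM and Hoxc12 at 17.9 and 8.91 TPM. Both cells held 3 neural markers at TPM 10, with the neuronal tubulin Tubb3 at 3333 and 2004 TPM, beside 12 and 16 of 17 pan-endothelial markers and 0 mesenchyme markers, and the part of neural transcripts in these values was not tested. Hoxd12 was found in cell 14 at 13.8 TPM and Hoxd13 in cell 58 at 4.55 TPM. Hoxa13 and Hoxb13 were found in 0 cells.

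**Figure D2:**
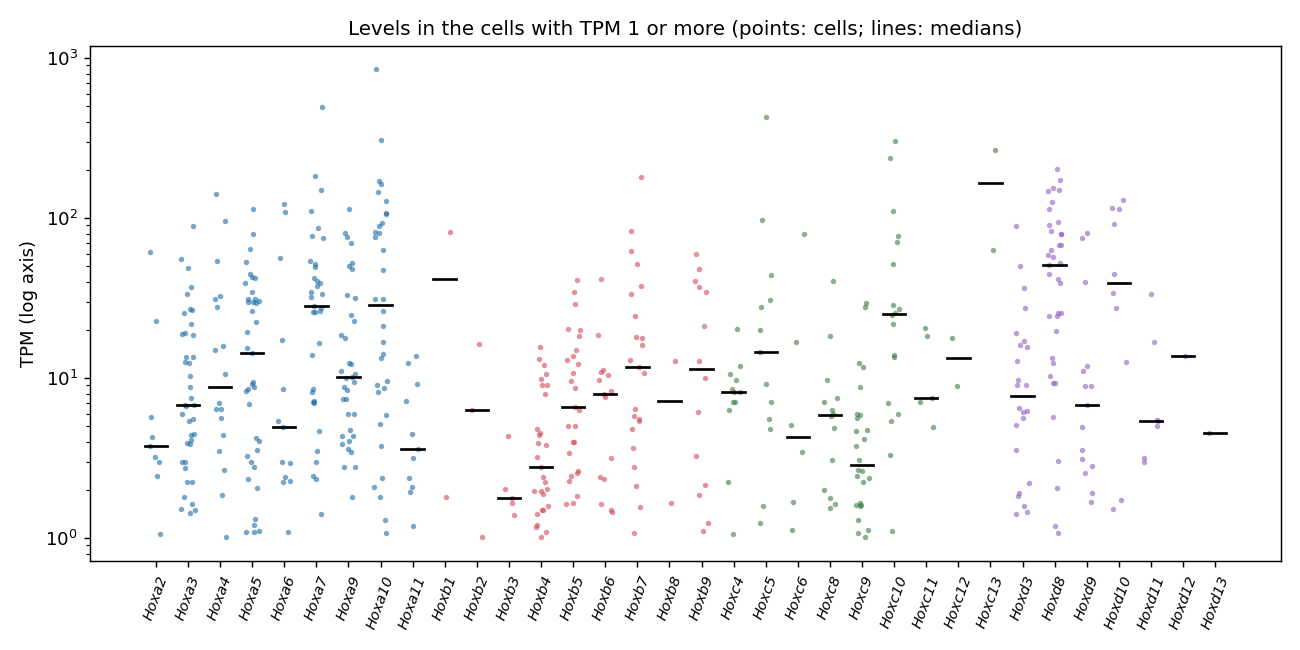
TPM of each Hox gene (log y axis) in the cells where it reached TPM 1, with 1 point per cell and a line at the median, for the genes reported here that were detected in any cell. Levels within a gene spanned up to 2 orders of magnitude or more, for instance 1.08 to 851 TPM for Hoxa10, and Hoxb4 and Hoxc9 stayed under 30 TPM in every cell.

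Read per cell, the highest paralog number was most often 10, in 29 cells, followed by 9 in 16, 8 in 12 and 11 in 11 cells. It was 7 or lower in 11 cells and 12 or 13 in 4, with 1 cell holding no detected gene. Anterior, central and posterior genes were found together in 46 cells. Gaps within a cluster were most frequent in HoxA and least in HoxD. Of 61 cells with at least 2 HoxA genes, 51 had an undetected HoxA gene between the lowest and the highest. Such a gap was present in 21 of 33 cells in HoxB, 14 of 28 in HoxC and 8 of 26 in HoxD, clusters that differ in their number of genes. Hoxd4 is not counted in the HoxD gaps. A missed transcript and an unexpressed gene cannot be told apart in these gaps.

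**Figure D3:**
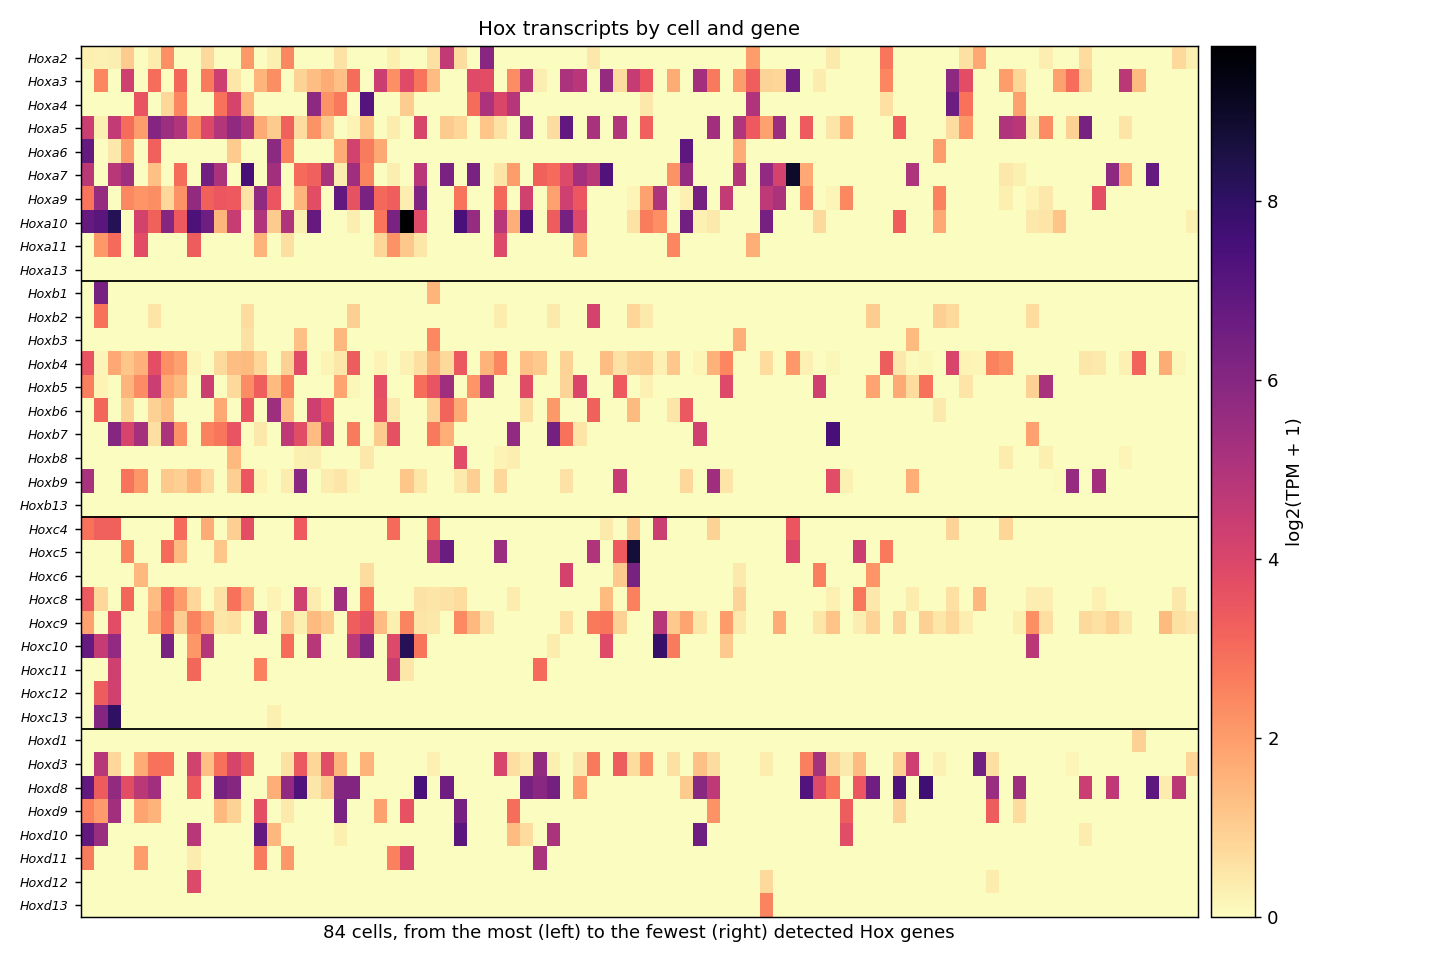
Level of the Hox genes reported here (rows, by cluster and paralog number) in the 84 cells (columns), as log2(TPM + 1) in color. Columns run from cell 69 with 16 detected Hox genes on the left to cell 49 with 0 on the right; detected genes are scattered within clusters, with undetected genes between them.

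The number of Hox genes rose with the number of other genes detected, across the 84 cells of this 1 sample (Pearson r = 0.43, Spearman rho = 0.32, and r = 0.38 without the 2 cells farthest from the median number of genes). The median was 6 Hox genes in the 42 cells with fewer and 7 in the 42 with more other genes. Since both counts depend on how well a cell was captured, co-detection was also computed within these sets of 42 cells.

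Neighbouring Hox genes were found in the same cell more often than independent detection gives. For each pair with both genes in at least 5 cells, the number of cells with both was divided by the number expected from independent detection. Neighbours are consecutive in number among the analysed genes of a cluster, so Hoxd3 and Hoxd8 count as neighbours with Hoxd4 left out. Over 23 pairs of neighbours the median ratio was 1.44 (0.933 to 3.36), and 21 pairs were above 1. A ratio of 1.5 or more was reached by 10 of the 23 (43.5%). Among consecutive genes of the whole table detected in 5 to 60 cells, 12.8% reached it (13.7% within 30 kb), with a median of 1.09. Since low detection spreads the ratio and every Hox gene was found in 40 cells or fewer, the closer background, chosen after the data were seen, is genes in 5 to 40 cells: 24.2% of 1456 consecutive pairs (24.6% within 30 kb) reached 1.5, with a median ratio of 1.16. Computed within the sets of 42 cells, the median for neighbours was 1.40, with 10 of 23 at 1.5 or more. The cells come from 1 sample, so these ratios describe it and carry no test.

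The highest ratios of neighbours lay at the posterior ends. Hoxd9 and Hoxd10 were found together in 6 cells where 1.79 were expected (ratio 3.36), Hoxc10 and Hoxc11 in 3 against 1.07 (2.80), Hoxc9 and Hoxc10 in 14 against 5.57 (2.51) and Hoxd10 and Hoxd11 in 2 against 0.833 (2.40). Hoxc4 and Hoxc5, like Hoxc5 and Hoxc6, had a ratio of 2.15. Hoxc9 was detected in 14 of the 18 cells with Hoxc10 (77.8%, 52.4% to 93.6%) and in 12 of the 66 others (18.2%, 9.76% to 29.6%). The largest number of shared cells was that of Hoxa9 and Hoxa10, whose lowest chromosome coordinates lie 8.10 kb apart: 25 cells against 14.6 expected (1.72). Hoxa9 was found in 25 of the 34 cells with Hoxa10 (73.5%, 55.6% to 87.1%) and in 11 of the 50 others (22%, 11.53% to 35.96%).

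Other neighbours were near independence. Hoxa2 and Hoxa3 had the lowest ratio, with 4 cells against 4.29 (0.933), followed by Hoxc6 and Hoxc8 with 1 against 1 (1) and Hoxb3 and Hoxb4 with 2 against 1.73 (1.16). Central HoxA genes lay between: the ratio was 1.33 for Hoxa5 and Hoxa6, 1.48 for Hoxa6 and Hoxa7 and 1.2 for Hoxa7 and Hoxa9. By cluster, the median ratio of neighbours was 2.15 in HoxC (6 pairs), 1.88 in HoxD (4), 1.44 in HoxA (9) and 1.21 in HoxB (4). Several pairs rest on 1 to 4 shared cells.

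Pairs further apart in a cluster had lower ratios at the TPM 1 limit, but with detection at TPM 10 the medians were 1.29 for neighbours (9 pairs) and 1.3 for the others (25 pairs). At TPM 1 the median was 1.24 for the 20 pairs at the second position from each other, 1.10 for 16 at the third and 1.17 for 12 at the fourth. It was 1.04 for 8 pairs at the fifth and 1.65 for 6 at the sixth, so the decline was not regular. Over all 68 pairs of a cluster that are not neighbours it was 1.17, with 14 (20.6%) at 1.5 or more, a share near that of consecutive genes at large (24.2%).

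Co-detection did not stop at the cluster border. For pairs of the same paralog number in different clusters, which lie on different chromosomes, the median ratio was 1.42 over 26 pairs, with 11 at 1.5 or more. The other 261 pairs between clusters had a median of 1.17, with 58 (22.2%) at 1.5 or more. Without mesenchyme-marker cells the medians were 1.18 (14 pairs) and 1.14 (112 pairs), and with detection at any value above 0 they were 1.18 and 1.11. At TPM 10 the same-number pairs had a median of 1.15 (11 pairs). Among all pairs of genes on different chromosomes, 18.8% of those detected in 5 to 40 cells and 9.68% of those in 5 to 60 cells reached 1.5, with medians of 1.09 and 1.06.

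Posterior genes carried the highest ratios between clusters. Of 36 posterior pairs in different clusters, 34 were above 1 and 20 (55.6%) reached 1.5, with a median ratio of 1.58 (0.882 to 7.20). Computed within the sets of 42 cells, the median was 1.57. Anterior with posterior genes of different clusters had a median of 1.04 over 60 pairs, with 8 (13.3%) at 1.5 or more, and the medians were 1.17 for anterior with anterior and 1.25 for central with central pairs. Hoxc11 and Hoxd11 shared 3 cells where 0.417 were expected (7.20), Hoxa11 and Hoxc11 shared 4 against 0.655 (6.11) and Hoxa11 and Hoxd11 shared 4 against 0.917 (4.36). No window of their transcripts was within 2 mismatches of each other (0 for each of these genes). The 3 cells with both Hoxc11 and Hoxd11 (63, 64 and 68) all belong to 1 set of barcode indices, and cells 63 and 68 also held Hoxa11. Hoxa10 was detected in 8 of the 10 cells with Hoxd10 and in 12 of the 18 with Hoxc10 (66.7%, 40.99% to 86.7%), compared with 22 of the 66 without Hoxc10 (33.3%, 22.2% to 46.01%). All 12 pairs of paralogs 10 and 11 between clusters were above 1, with a median of 2.42, a limit of number chosen after the values were seen.

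**Figure D4:**
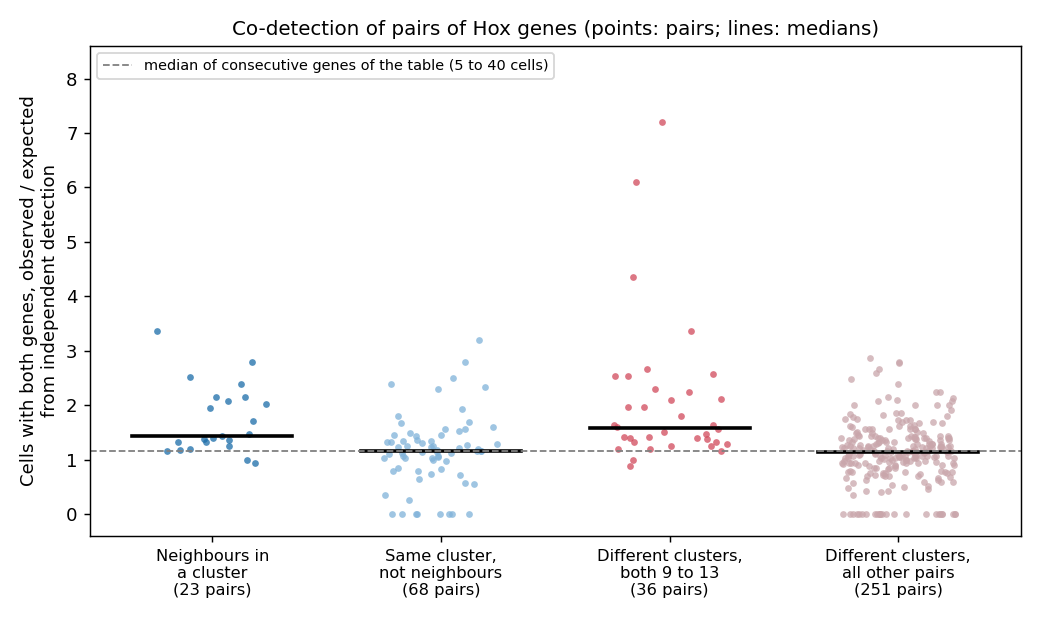
Cells with both genes over the number expected from independent detection (y axis), with 1 point per pair of Hox genes, for neighbours, other pairs of a cluster, posterior pairs of different clusters and the other pairs of different clusters. Lines mark medians of 1.44 for neighbours and 1.58 for posterior pairs between clusters, and the dashed line marks the median of 1.16 for consecutive genes of the table in 5 to 40 cells.

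The posterior ratios between clusters differed with the cells included, which also changed the pairs that could be counted. Without the 34 mesenchyme-marker cells, 18 of the 36 pairs kept both genes in 5 cells. No paralog 11 gene was among them, since Hoxa11, Hoxc11 and Hoxd11 were found in 3, 2 and 2 of the 50 cells left. The median ratio of the 18 pairs was 1.26, and 5 of 18 reached 1.5. Without the mesenchyme-marker and the 4 neural-marker cells it was 1.23, and 2 of 18 reached 1.5. Within the 34 mesenchyme-marker cells alone it was 1.74 over 23 pairs. Those pairs include Hoxa11 and Hoxd11 and leave out Hoxc11 and Hoxd10. The medians are therefore not of the same pairs, and the part of the change of pairs was not tested. Paralogs 11 to 13 were found in 9 of the 34 mesenchyme-marker cells (26.5%, 12.9% to 44.4%) and in 6 of the 50 others (12%, 4.53% to 24.3%). Of the 11 cells with Hoxa11, 8 were mesenchyme-marker cells. Neighbours had a median ratio of 1.25 over 13 pairs without the mesenchyme-marker cells, compared with 1.44 over 23 pairs in all cells. The part of mesenchyme and neural transcripts in these ratios was not tested.

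Not all pairs were found together more often than independent detection gives: 194 of the 287 pairs between clusters and 47 of the 68 pairs of a cluster that are not neighbours had a ratio above 1. As examples chosen after their values were seen, Hoxa2 and Hoxa9 shared 1 cell where 3.86 were expected (0.259) and Hoxa3 and Hoxd8 shared 13 against 17.6 (0.738). Hoxa3 and Hoxd3 shared 8 cells where 11.4 were expected (0.700), with Hoxa3 in 8 of 24 cells with Hoxd3 (33.3%, 15.6% to 55.3%) and in 32 of the 60 others (53.3%, 40% to 66.3%). These intervals overlap. Hoxa6 and Hoxc6 shared 0 cells against 0.929.

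Hox proteins bind DNA with cofactors of the PBX, MEIS and PKNOX families. Among the cofactor genes reported here, Meis2 was found in 69 cells at a median of 19.5 TPM over all cells, Pbx2 in 60 at 3.14, Meis1 in 53 at 5.83, Pknox1 in 51 at 2.65 and Pbx3 in 46 at 1.89. Pknox2 (12 cells), Meis3 (10) and Pbx4 (4) were rare. Meis1 ranged up to 1551 TPM, and its mean log2(TPM + 1) was 6.23 in mesenchyme-marker cells and 2.32 in the others. Meis2 was also higher there, by 1.42 log2 units.

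Of 9 genes that act upstream of Hox clusters, 5 were detected. The Cdx genes, which switch on central and posterior Hox genes in the early embryo, were at 0 TPM in all 84 cells (Cdx1, Cdx2 and Cdx4), and the retinoic acid-degrading enzyme Cyp26a1 was detected in 0. The retinoic acid receptors Rarg, Rara and Rarb were found in 62, 40 and 30 cells, the signal Gdf11, which promotes posterior Hox genes in the trunk, in 43 and the retinoic acid-making enzyme Aldh1a2 in 10. Of 16 flanking or noncoding genes of the fixed list 10 had a row and 7 were detected. The homeobox genes Evx1 and Evx2, which lie at the 5′ ends of HoxA and HoxD, were found in 0 cells. Genes that flank HoxA and HoxD were common, with Skap2, Mtx2 and Lnp each in 66 cells and Hibadh in 48. Calcoco1 and Smug1, which flank HoxC, were found in 36 and 26 cells, and Skap1 and Ttll6, which flank HoxB, in 2 and 0.

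Mesenchyme-marker cells held more HoxC. A HoxC gene was detected in 27 of these 34 cells (79.4%, 62.1% to 91.3%) and in 23 of the other 50 (46%, 31.8% to 60.7%), and the intervals do not overlap. All 7 HoxC genes found in at least 5 cells had a higher mean there, by a median of 0.51 log2 units, against 45.4% of all 12318 genes. Hoxc5 was the 1 gene of 28 Hox genes that was higher by 1 log2 unit or more, a size that 3.95% of all genes reached, and 0 were lower by that size (6.4% of all genes). The count was 0 without the 10 cells with the fewest genes and 0 with a pseudocount of 10. Hoxc5 was found in 10 of the 34 cells, at up to 428 TPM in cell 13, and in 3 of the 50 others at up to 9.19 TPM. Cell 13 had 2 of 17 pan-endothelial and 8 mesenchyme markers at TPM 10. The medians were 7 Hox genes in mesenchyme-marker cells and 5.5 in the others, with ranges of 2 to 16 and 0 to 15, so the groups overlap. The summed level of the 12 mesenchyme markers ran from 68.5 to 2963 TPM in the first group and from 0.04 to 68.8 in the second, and a median of 13 and 15.5 of the 17 pan-endothelial markers reached TPM 10. The part of mesenchyme transcripts in the HoxC values was not tested.

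Hoxa9 and Hoxa5 had higher means in cells with arterial transcripts. In the 30 cells with Gja4, Gja5 or Dll4 at TPM 10, Hoxa9 was found in 18 (60%, 40.6% to 77.3%), compared with 18 of the other 54 (33.3%, 21.1% to 47.5%). Its mean was 1.31 log2 units higher (2.49 against 1.18), and that of Hoxa5 1.11 higher (2.51 against 1.40). These were 2 of 28 Hox genes past 1 log2 unit, where 4.43% of all genes were higher and 0.609% lower by that size. The count itself therefore does not stand out. Any HoxA gene was detected in 29 of the 30 cells (96.7%, 82.8% to 99.9%) and in 46 of the 54 others (85.2%, 72.9% to 93.4%), and these intervals overlap. Over the 10 HoxA genes the median difference was 0.72 and 8 were higher, while 63.5% of all genes were higher in these cells. The difference of Hoxa5 was 0.45 without mesenchyme-marker cells and that of Hoxa9 was 1.86, and within the 7 index sets they were higher in 6 and 5. A posterior Hox gene was detected in 26 of the 30 cells (86.7%, 69.3% to 96.2%) and in 34 of the 54 others (62.96%, 48.7% to 75.7%), intervals that overlap.

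Hoxd8 went with Prox1, the regulator of lymphatic identity. In the 36 cells with Prox1 at TPM 10, Hoxd8 ran from 0 through a median of 16.6 to 204 TPM, and it was detected in 21 (58.3%, 40.8% to 74.5%). In the other 48 cells it ran from 0 through a median of 0 to 149 TPM, with detection in 16 (33.3%, 20.4% to 48.4%). The groups overlap over most of their range. The mean difference was 1.77 log2 units, which 44 of the 12318 genes (0.357%) reached or passed, and it was 2.81 without mesenchyme-marker cells. It was positive in 5 of the 7 index sets (from -0.74 to 4.41). Hoxd8 was the 1 Hox gene past 1 log2 unit in this comparison, where 4.66% of all genes were higher and 1.16% lower by that size, so the count itself does not stand out. The other HoxD genes found in at least 5 cells had differences of -0.06 (Hoxd3), 0.50 (Hoxd9), 0.45 (Hoxd10) and 0.004 (Hoxd11).

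In the 10 cells with Runx1, the regulator of the passage from endothelium to blood, a median of 6.5 Hox genes was detected, and 6 in the others. Hoxa6 was the 1 Hox gene past 1 log2 unit (9.67% of all genes were higher and 3.43% lower by that size), with detection in 4 of 10 cells (40%, 12.2% to 73.8%) and in 9 of 74 (12.2%, 5.71% to 21.8%). It was higher in 3 of the 5 index sets that held both kinds of cell. Of the 10 cells, 8 were also mesenchyme-marker cells and 8 artery-gene cells, so these groups share cells.

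**Figure D5:**
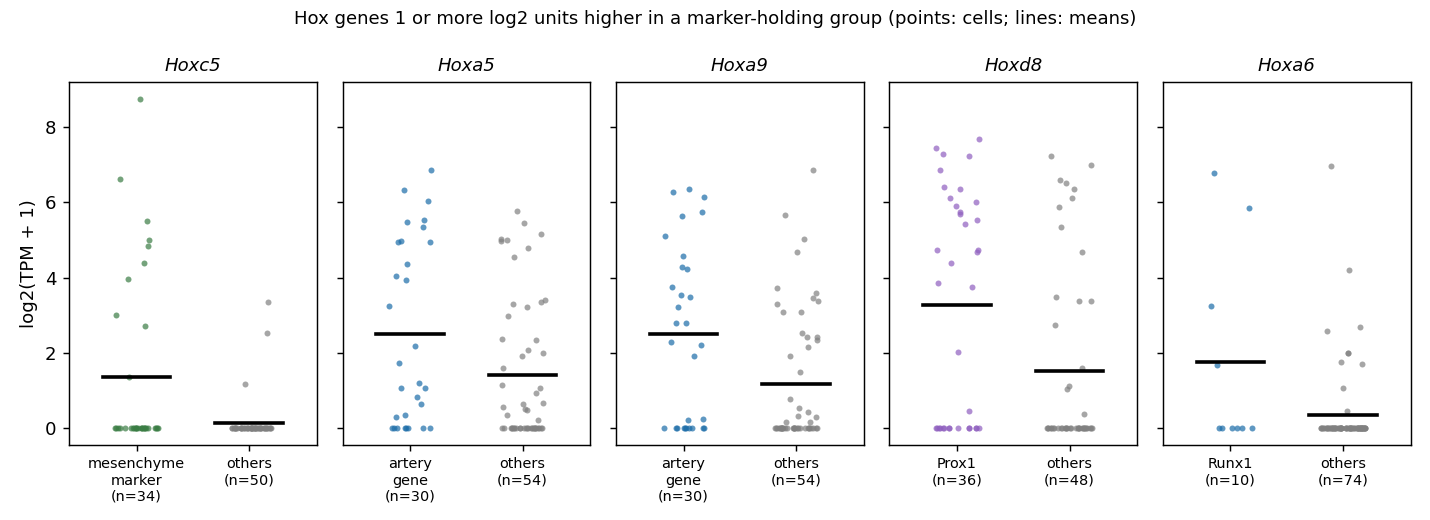
Level of the 5 Hox genes (y axis, log2(TPM + 1)) that were 1 log2 unit or more higher in a group of cells defined by marker genes, with 1 point per cell and a line at the mean. Many cells lie at 0 on both sides of each panel, and the groups overlap for every gene.

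Neural-marker cells held many Hox genes. The 4 cells held 14, 10, 11 and 15 Hox genes (cells 12, 23, 39 and 61), all within the 20 cells with 10 or more, while the other 80 ranged from 0 to 16 with a median of 6. The number of neural markers at TPM 10 correlated with the number of Hox genes across the 84 cells (Pearson r = 0.46, Spearman rho = 0.41). The rho was 0.29 for erythroid markers, and lower for the mesenchyme (0.24), pan-endothelial (-0.07), arterial (0.09), venous (-0.08) and lymphatic (0.04) lists. The part of neural transcripts in the number of Hox genes was not tested. The 4 cells differed in their endothelial markers, with 12, 1, 1 and 16 of 17 at TPM 10. Of the 7 neural markers, Th was at 0 in all cells.

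The 10 genes whose levels followed the number of Hox genes most closely had rho between 0.42 and 0.48 over the 84 cells: Il12rb2, Msi1, Als2cl, Aff3, Nkapl, Pcnxl4, Peli2, Gpc1, Dixdc1 and Rab22a. Msi1, an RNA-binding protein of neural progenitors, was detected in 42 cells with rho = 0.48 and had 0.03 with the number of other genes detected, while Als2cl had 0.36 with that number. These are the extremes of 12290 genes, and a weak correlation of sparse values is a description only.

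Barcode indices are the technical grouping that the labels give, and Hox counts varied among them. In the 7 sets of 12 cells by second index the median number of Hox genes was between 4.5 and 8.5, HoxA was found in 9 to 12 cells, HoxB in 6 to 12, HoxC in 4 to 9 and HoxD in 6 to 9. In the 12 sets of 7 cells by first index the median lay between 3 and 9. Hoxa5 was found in 4 to 7 cells of each set of 12, Hoxd8 in 3 to 7, Hoxa9 in 3 to 7 and Hoxa10 in 2 to 8, so the common genes did not come from 1 set. Set 6 of the second index held 4 of the 7 cells with Hoxd11 and 3 of the 5 with Hoxc11. It also held 4 of the 10 cells with Hoxd10, 5 of the 15 with Hoxd9 and 3 of the 11 with Hoxa11. All cells shared by Hoxc11 and Hoxd11, and by Hoxd10 and Hoxd11, were of this set.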

How the data were processed

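Single-cell RNA-seq was measured in 84 cells captured on a chip for cells of 10 to 17 µm, with full-length cDNA amplified in the chip and sequenced from 1 end (67 bp), per the labels' protocols. The authors deposited TPM for 20308 genes per cell. CASAVA 1.8.2, RSEM 1.2.3, Bowtie 0.12.9 and mm10 are named in the submitters' processing notes, while settings and annotation were not given in the sources used here. Columns sum to between 999998 and 1000002 TPM, so depth is unknown.

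Detection is TPM 1 or more. Group differences are of mean log2(TPM + 1), with a pseudocount of 1, over genes detected in at least 5 cells (12318, of which 28 Hox genes), which understates changes of low genes. The scripts ran in Python 3.11.15 with scipy 1.17.1 and were tested on simulated data. All 38 symbols matched RefSeq (GRCm38.p6), and exon overlaps and transcript windows come from GENCODE M21 on GRCm38. The cells form 1 group, no doublet caller was run, and only counts, shares, ratios and differences are given.

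The Hox genes and lists were chosen with earlier results of these data known. Named genes are the 4 most detected of each cluster, the most detected of each paralog number, detected genes numbered 10 or more, and neighbours with the 5 highest and 3 lowest ratios, and others were named after their values were seen. Homeodomain sequences, which were also planned, are not shown. Some genes are not reported here by name, while counts and shares over groups of genes include them.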

Additional observations from a re-analysis of the deposited data

How the results depend on the processing

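The reported values were recomputed at other detection limits, without sets of cells and within index sets. Of 119 summary values under alternatives, 82 kept within counting error or within 1.5 times and 37 did not. For co-detection ratios the limit of 1.5 times is wide, so this count cannot show whether they stayed above 1. The median of the other pairs between clusters counts as kept at 0.884 against 1.17. With detection at any value above 0, shares rose to 100% for any Hox gene, 95.2% for HoxA, 91.7% for HoxB, 85.7% for HoxC, 76.2% for HoxD, 96.4% for anterior and 92.9% for posterior genes. At TPM 10 they were 91.7% for any Hox gene, 71.4% for HoxA, 42.9% for HoxB, 29.8% for HoxC, 47.6% for HoxD, 47.6% for anterior, 72.6% for central and 51.2% for posterior genes, and the median fell to 3 Hox genes per cell. At TPM 10 HoxD was thus above HoxB, the reverse of their order at TPM 1. Without mesenchyme-marker cells HoxC was found in 46%. Over the index sets of 12 cells, the lowest and highest shares were 91.7% and 100% for any Hox gene, 75% and 100% for HoxA, 50% and 100% for HoxB, 33.3% and 75% for HoxC, 66.7% and 91.7% for anterior and 50% and 100% for posterior genes. The lowest for HoxD was 50%, the highest for central genes 100%, and the fewest Hox genes in a set 19. The count of Hox genes higher in mesenchyme-marker cells, 1 in the main comparison, was 0 without the 10 cells with the fewest genes, with a pseudocount of 10 or at a difference of 2, and 2 with at least 5 markers or without neural-marker cells, the last of which was chosen after the data were seen. The median ratio of neighbours stayed between 1.25 and 1.54 and that of posterior pairs between clusters between 1.26 and 1.70 (1.23 without both the mesenchyme-marker and the neural-marker cells), while the other pairs between clusters fell to 0.884 at TPM 10. Several settings also changed which pairs had both genes in enough cells, and the causes of the changes in value were not tested. No paired analysis was possible because there is 1 group. A Hox gene at 0 in a cell may have been missed at a depth that TPM does not show.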
